A study of Arabidopsis thaliana with 6 samples.

Results

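The comparison was that of rosettes kept for 4 hours in light at normal CO2 with rosettes kept for 4 hours in light at low CO2. It used 4 of the 6 arrays of the series, chosen by their labelled treatment, and 22746 of the 22810 deposited probe sets, since 64 control probe sets were left out. All plants were the pgm mutant of Arabidopsis thaliana in the Col-0 background, which lacks the plastid phosphoglucomutase and therefore makes almost no starch, so the low CO2 plants carried this defect as well. No wild type entered the series, and the comparison therefore holds for starchless plants. Whole rosettes of plants 5 to 6 weeks old were used, and the labels describe material of 15 rosettes ground together. Each treatment had 2 arrays, A and B, which the series names biological replicates. The remaining group, low CO2 in darkness (2 arrays), served in the estimate of the spread.

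In a leaf, light drives electron transport, and CO2 is fixed into sugars with the energy gained. At low CO2 the light is still seen, but little carbon is fixed. A plant without starch has no large reserve to fall back on, so its sugar supply follows carbon fixation closely. Plant cells sense sugar through kinases of opposite roles. TOR promotes protein synthesis and growth when carbon is available, and SnRK1 promotes the recycling of proteins and amino acids when it is scarce. The ribosome is the largest single consumer of newly made protein and RNA in a growing cell.

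The values are linear intensities, 1 per probe set, tested on the scale log2(intensity + 7.3) with limma. A probe set is called past the threshold at an adjusted p under 0.05 over all probe sets. Replicates A and B correlated across probe sets with r = 0.984 at normal CO2 and 0.971 at low CO2 in light. A spiked bacterial control, bioC, read 66.3 to 73.8 on the A arrays and 116.2 to 157.3 on the B arrays, and each letter held all 3 treatments. The ubiquitin 3′ to 5′ ratio, a sign of RNA integrity, was 1.69 and 1.95 at normal CO2 and 1.44 and 1.38 at low CO2 in light. The same ratio was 2.16 and 2.60 for actin and 0.949 and 1.08 for GAPDH at normal CO2, against 2.63 and 2.84 for actin and 1.02 and 1.13 for GAPDH at low CO2 in light. The part of RNA integrity in the results was not tested. Of the 24 cell type markers written down, 2 had a named probe set. RCA, the mesophyll marker and activase of Rubisco, stood at 2924.5 and 3286.4 at normal CO2, against 2891.4 and 3326.9 at low CO2. FMA, a guard cell factor, stood at 74.6 and 67.5 against 51.1 and 50.6. No marker of phloem, root, flower or seed had a named probe set, so these tissues were not assessed. In a whole rosette, fewer cells of a type and less RNA per cell cannot be told apart.

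Both rises and falls were frequent, most of all among bright probe sets. At normal CO2, 1911 probe sets (8.4%) were higher and 1410 (6.2%) lower than at low CO2, together 14.6% of those tested, with a median log2 fold change of -0.01 over all probe sets. Among 3501 bright probe sets, with a mean intensity of at least 200 over the 4 light arrays, 605 (17.3%) were higher and 565 (16.1%) lower, together 33.4%. Of the bright ones, 320 rose and 372 fell at least 2-fold, while 28 rose and 112 fell at least 4-fold. The median called rise of the bright probe sets was 1.03 and the median called fall -1.22 on the log2 scale. Shifting the arrays to a common median turned the split of all calls to 1574 higher and 1742 lower. Without low CO2 in light replicate B the counts were 567 higher and 646 lower, of which 265 and 317 were bright. Leaving out either normal CO2 array, limma called 0 probe sets, and so 0 genes of every list below. The smallest adjusted p was then 0.0558 (without A) and 0.0846 (without B), and 5835 and 4779 probe sets had an unadjusted p under 0.05. Of the 13355 named genes, 28% had both normal CO2 arrays above both low CO2 arrays and 25.7% had both below, so arrays standing apart were common.

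Calls became more frequent with brightness. The share called was 2.09% in the dimmest of 5 equal bins of the probe sets, 3.83%, 11.4% and 23.1% in the bins above it and 32.6% in the brightest, which began at a mean intensity of 153.5. The median log2 size of a called rise was 0.77 in the dimmest bin and 1.02 in the brightest. In the brightest bin, 781 probe sets were higher and 702 lower. Called rises took up 17.8% and 19.4% of the summed intensity of the arrays at normal CO2, against 9.32% and 8.12% at low CO2 in light. Called falls took up 6.27% and 5.79% at normal CO2, against 15.7% and 17.8% at low CO2 in light. These shares describe probe sets picked by the same comparison and are no test of it.

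**Figure D1:**
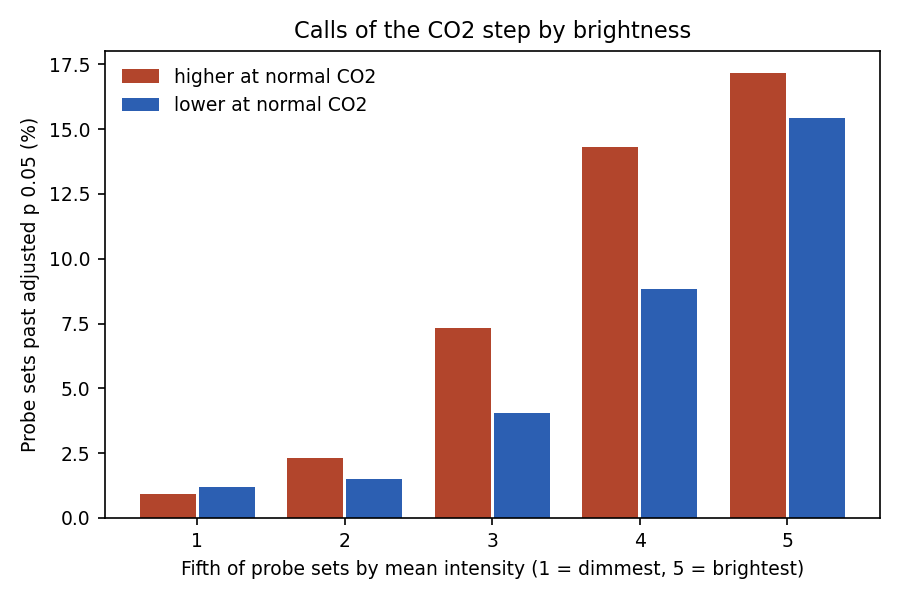
Share of probe sets past an adjusted p of 0.05 (y axis, percent) in 5 equal bins of the 22746 probe sets by mean intensity over the 4 light arrays (x axis, dimmest to brightest), higher at normal CO2 in red and lower in blue. The share called grows from 2.09% in the dimmest bin to 32.6% in the brightest, where rises (17.2%) and falls (15.4%) are close in number.

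Many genes of protein synthesis rose, and 0 of those listed fell. The lists of ribosomal proteins, assembly factors, synthetases, translation factors and polymerase subunits were added after values were seen. So were those of histones, folding in the endoplasmic reticulum, tetrapyrrole synthesis and photosynthesis. Their counts describe the members and are no test against the share of all named genes. PGY1, a protein of the large cytosolic ribosomal subunit, read 994.2 and 1317 at normal CO2, against 501.1 and 666.2 at low CO2. Its log2 fold change was 0.98 ± 0.23 (SE here and below), with an adjusted p = 0.0381. Both normal CO2 arrays lay above both low CO2 arrays. Of 80 measured genes of the large cytosolic subunit (60S), 48 rose and 0 fell, with a median log2 fold change of 0.90, where 7.45% of the 13355 named genes rose and 5.42% fell. Bright members made up 64 of them, and 42 of these rose. Among bright named genes, 33.2% passed, 15.7% as rises and 17.5% as falls. Of 48 genes of the small subunit (40S), 21 rose and 0 fell, with a median of 0.66. The middle intensity of the large subunit genes was 848 at normal CO2 and 500 at low CO2, and that of the small subunit genes was 948 and 537. Medians for A and B, here and below, set arrays of the same letter against each other, though the letters were not shown to pair the samples. They were 0.84 for A and 0.88 for B for the large subunit and 0.65 and 0.67 for the small one. Without low CO2 in light replicate B, 28 and 11 members passed, and without replicate A 30 and 14.

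Most factors that assemble ribosomes rose. Of 26 such genes, 23 rose and 0 fell, with a median log2 fold change of 1.49 (1.20 for A, 1.68 for B), although only 6 were bright. The Pescadillo homologue AT5G14520, needed for maturation of the large subunit, read 246.6 and 293.5 at normal CO2, against 77.6 and 73.8 at low CO2 (1.74 ± 0.14, adjusted p = 0.00485). YAO, a nucleolar WD repeat protein, read 107.3 and 106.8, against 32.4 and 22.7 at low CO2 (1.73 ± 0.20, adjusted p = 0.00802). The 2 groups of arrays did not overlap for either gene. AT5G41190, the NOB1 homologue, an endonuclease known from yeast to trim the small subunit RNA, read 92 and 140.5, against 34.9 and 39.8 at low CO2. The RNA helicases AT3G09720 (RH57) and PRH75 rose by 1.0 and 0.60. POPCORN, listed as PCN, had 0.28 and did not pass. Of the 26, 13 passed without low CO2 in light replicate B.

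Other genes of translation and of nuclear transcription rose in part. Of 15 cytosolic aminoacyl-tRNA synthetases, which charge tRNAs with amino acids, 7 rose and 0 fell, with a median of 0.65, while ALATS, the alanine enzyme, had -0.05. Of 8 initiation and elongation factors, 2 rose and 0 fell (median 0.49). When low CO2 in light replicate B was left out, 1 synthetase passed, and 4 without replicate A. Among 12 subunits of nuclear RNA polymerases, 6 rose and 0 fell, with a median of 0.86. The catalytic subunits of RNA polymerase I, which transcribes ribosomal RNA, were among them. NRPA1 read 47.4 and 67.5 at normal CO2, against 17 and 11.2 at low CO2 (1.59 ± 0.26, adjusted p = 0.0149). NRPA2 read 160.2 and 200.6, against 74.8 and 65.7 at low CO2 (1.27 ± 0.17, adjusted p = 0.00997). Both normal CO2 arrays were the higher ones for each. NRPC2, of the polymerase III that makes tRNA, rose by 1.15, and the small subunits NRPB7, NRPB12 and NRPB9B rose by 1.01, 1.01 and 0.84. Only 1 of the 12 passed without low CO2 in light replicate B.

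**Figure D2:**
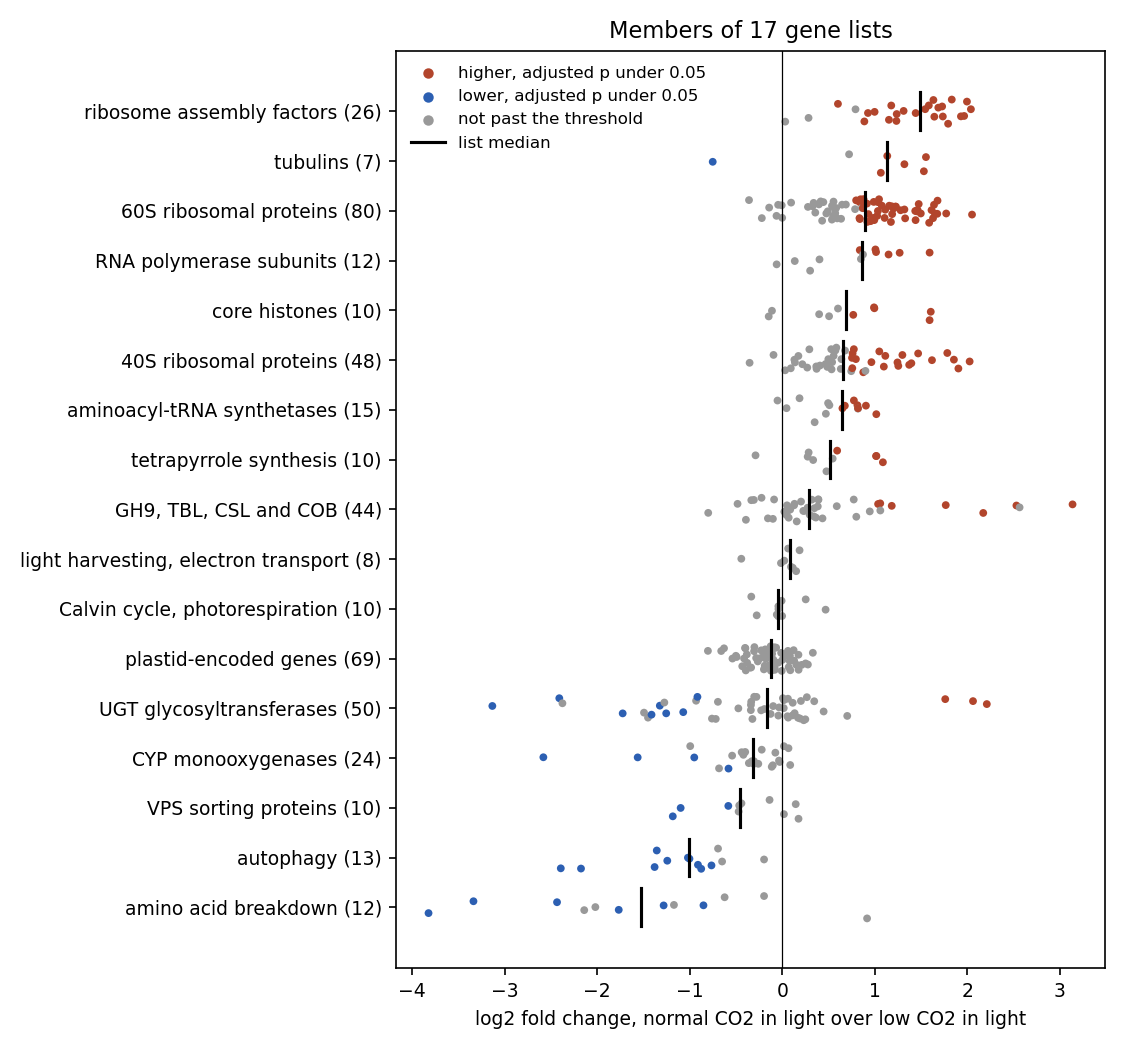
Log2 fold change of each measured gene, normal CO2 in light over low CO2 in light (x axis), for 17 gene lists (y axis, number of genes in brackets), with called rises in red, called falls in blue and other genes in grey. Black bars mark list medians, which run from 1.49 for ribosome assembly factors to -1.52 for amino acid breakdown, while plastid-encoded and photosynthesis genes cluster near 0.

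Some core histone genes and most tubulin genes, whose products growing and dividing cells need, rose too. Of all named genes, to be set beside the histone and tubulin counts, 7.45% rose and 5.42% fell. Of 10 core histone genes 5 rose and 0 fell (median 0.69). Among them were the H2B genes HTB1 (202.7 and 252.7 at normal CO2, against 81.9 and 58.8 at low CO2), HTB2 (216.1 and 192, against 81.5 and 47.8) and HTB4 (670.4 and 618, against 444.7 and 316). The normal CO2 arrays were the higher ones for all 3, with log2 fold changes of 1.61, 1.59 and 0.77. Of 7 tubulins, which polymerise into microtubules, 5 rose and 1 fell, with a median of 1.14. TUA6, a bright alpha tubulin, read 1383.8 and 1372.7 at normal CO2, against 640.3 and 347.7 at low CO2 (1.53 ± 0.27, adjusted p = 0.0188). The beta tubulins TUB9, TUB1, TUB5 and TUB7 rose by 1.55, 1.32, 1.14 and 1.07, and TUB6 had 0.72 without passing. SPR1, which binds microtubules and keeps cells growing straight, rose by 0.56. A single histone gene (1) and 4 tubulins passed without low CO2 in light replicate B.

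Genes of protein folding rose in part, in 2 small lists, where 7.45% of all named genes and 15.7% of bright named genes rose. Of 3 folding genes of the endoplasmic reticulum 3 rose, and of 3 organelle chaperonins 1 rose, while Cpn60beta3 and Cpn60beta4 had 1.17 and 0.38 and did not pass. Cpn60beta2, a subunit of the plastid chaperonin, read 1150.5 and 1194.7 at normal CO2, against 442.5 and 235.8 at low CO2 (1.83 ± 0.31, adjusted p = 0.0160). The lower normal CO2 array stood well above the higher low CO2 array. In the endoplasmic reticulum, where secreted proteins fold, the calreticulin CRT1b read 436.4 and 485.4, against 213.9 and 190.4 at low CO2 (1.16 ± 0.14, adjusted p = 0.00828). Its J-domain partner ERDJ3B, listed as ATERDJ3B, rose by 1.10. Other bright organelle genes that rose were chosen after their values were seen. In mitochondria, MPPBETA, a subunit of the peptidase that trims imported proteins, rose by 0.79, and MAB1, a subunit of pyruvate dehydrogenase, rose by 0.83. MDH, the plastid malate dehydrogenase, read 544 and 548.6, against 249.4 and 224.8 at low CO2 (1.18 ± 0.12, adjusted p = 0.00683), with little spread in either group. FTSZ2-1 and FTSZ2-2, which form the ring that divides plastids, rose by 0.86 and 0.89. SAPX, an ascorbate peroxidase of the stroma, read 239.6 and 376.3, against 114 and 105.1 at low CO2 (1.40 ± 0.22, adjusted p = 0.0138).

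The lists of sulfur and nucleotide metabolism were small, and 7.45% of all named genes rose and 5.42% fell. Of 5 genes of sulfate assimilation and glucosinolates, 1 rose (SIR) and 0 fell, and of 5 genes of nucleotide synthesis, 2 rose (PYRB and PyrD, where PyrD works in riboflavin synthesis) and 0 fell. SIR, the sulfite reductase that makes sulfide for cysteine, read 648 and 709.3 at normal CO2, against 340.2 and 200.9 at low CO2 (1.35 ± 0.25, adjusted p = 0.0196). APS3, an ATP sulfurylase of the same route, is in neither list and rose by 1.59. OTC, ornithine carbamoyltransferase of arginine synthesis, read 416.5 and 496.8, against 264.7 and 245.6 at low CO2, and rose by 0.82. PYRB, aspartate transcarbamoylase of pyrimidine synthesis, read 250.8 and 305.9, against 132.4 and 91.2 at low CO2, and rose by 1.28. The arrays of the 2 treatments did not overlap for any of these 4 genes. PMM, which makes mannose 1-phosphate for ascorbate and protein glycosylation, rose by 0.85. GME, a later enzyme of the ascorbate route, read 660.5 and 625.1 at normal CO2, against 980.7 and 1541.5 at low CO2, and fell by 0.93. The arrays of GME did not overlap either, but in the other direction.

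Of 10 genes of tetrapyrrole synthesis, the route to chlorophyll, haem and sirohaem, 4 rose and 0 fell, with a median of 0.51. Bright members numbered 8, and 3 of these rose. Rises made up 7.45% of all named genes and 15.7% of bright named genes. GSA1, which makes the first committed precursor, read 433.8 and 490.2 at normal CO2, against 217.5 and 231.9 at low CO2 (1.01 ± 0.17, adjusted p = 0.0148). HEME2, a uroporphyrinogen decarboxylase, read 472 and 530.5, against 262.9 and 225.3 at low CO2 (1.02 ± 0.14, adjusted p = 0.0102). CHLI2, a subunit of the magnesium chelatase of the chlorophyll branch, read 304.3 and 363.6, against 170 and 136.9 at low CO2 (1.09 ± 0.17, adjusted p = 0.0126). The groups stood apart for all 3. SIRB, which inserts iron for sirohaem, the cofactor of SIR, rose by 0.59, a call that ended in 4 of the settings that left out no single array. PORB, a late chlorophyll enzyme, had 0.48 and the geranylgeranyl reductase AT1G74470 had 0.28, and neither passed. Only 1 of the 10 passed without low CO2 in light replicate B.

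The measured genes of the photosynthetic apparatus, a small part of it, gave no calls. The list of light harvesting and electron transport named 48 loci, and 8 genes were measured. Loci without a singly named probe set were not assessed. Of 8 nuclear genes of light harvesting and electron transport, 0 passed in limma and 0 had an unadjusted p under 0.05, with a median log2 fold change of 0.08. They were bright, with middle intensities of 3245 at normal CO2 and 3093 at low CO2. LHCB4.1, an antenna protein of photosystem II, read 4283.7 and 4708.7 at normal CO2, against 3894.9 and 4538.5 at low CO2 (0.10 ± 0.18, adjusted p = 0.785). PSAN, of photosystem I, read 2542.2 and 2702.4, against 2683.5 and 2607.9 at low CO2 (-0.01 ± 0.15, adjusted p = 0.969). The treatments overlapped for both, and LHCB4.3, the lowest of the list, had -0.44.

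Of 10 measured genes of the Calvin-Benson cycle and photorespiration, from a list that named 35 loci, 0 passed. Of these 10, 1 had an unadjusted p under 0.05, and the median was -0.04. SBPASE, which regenerates the CO2 acceptor, read 1890.4 and 1971 at normal CO2, against 1828.8 and 2154.8 at low CO2 (-0.04 ± 0.15, adjusted p = 0.904). Of 69 genes encoded in the plastid genome, 60 of them bright, 0 passed and 1 had an unadjusted p under 0.05. Their median was -0.12, but it was 0.11 for A and -0.38 for B, so their direction was not settled. With 2 arrays a group, changes larger than these errors could also go uncalled, as PORB did at 0.48 ± 0.21. The absence of calls therefore does not show that these genes were unchanged.

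**Figure D3:**
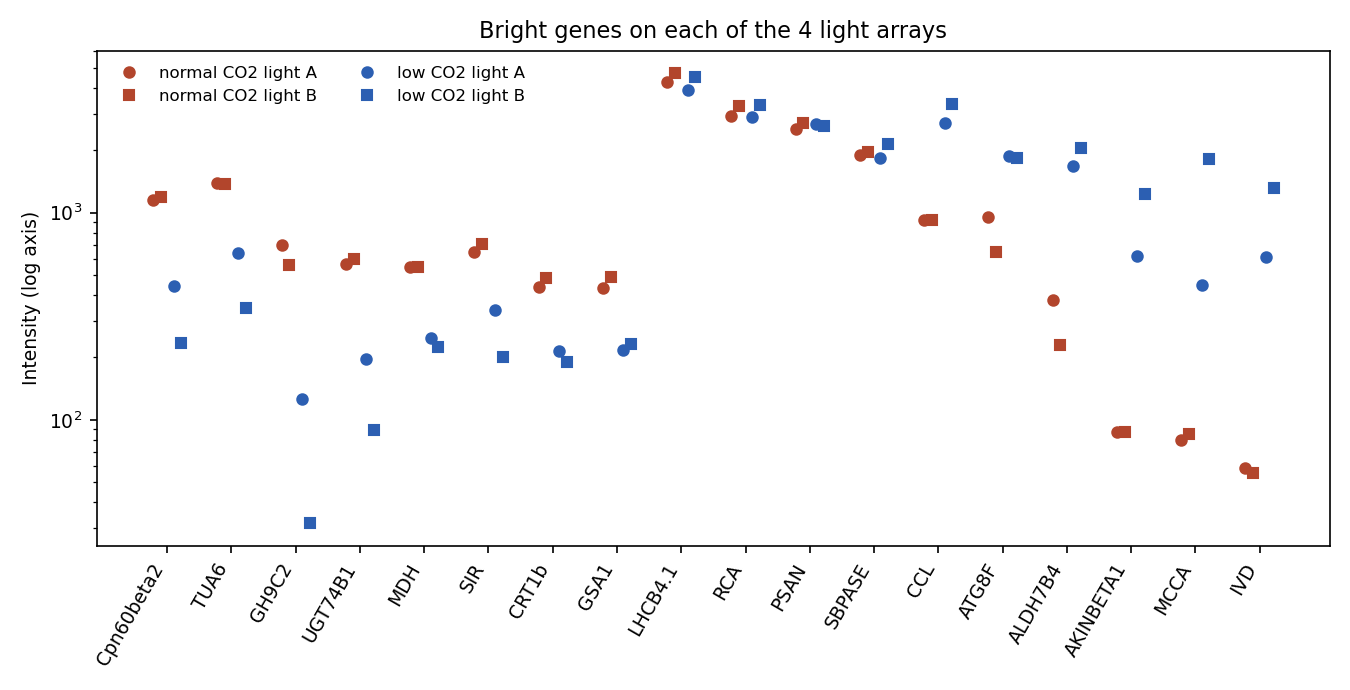
Intensity (y axis, log scale) of 18 bright genes (x axis) on the 2 arrays of normal CO2 in light (red) and the 2 of low CO2 in light (blue), with circles for replicate A and squares for B. The genes on the left lie higher at normal CO2, LHCB4.1, RCA, PSAN and SBPASE in the middle overlap, and CCL to IVD on the right lie lower at normal CO2, with MCCA at 80.3 and 85.2 against 448.3 and 1806.1.

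Cell wall genes rose in part. Of 44 genes named as family 9 glycosyl hydrolases, TBL wall acetylation proteins, cellulose synthase-like proteins or COBRA, 7 rose and 0 fell, with a median of 0.29, where 7.45% of all named genes rose and 5.42% fell. This list was put together after values were seen, so its count is no test. Of the lists written at first, 0 of 4 pectin enzymes passed (median -0.18). In the cellulose synthase list 1 of 3 rose, which was COB. GH9C2, a family 9 endoglucanase, read 700.4 and 559 at normal CO2, against 125.4 and 31.7 at low CO2 (3.14 ± 0.67, adjusted p = 0.0296). GH9B7 of the same family read 646.9 and 664.5, against 321.4 and 251.8 at low CO2 (1.18 ± 0.18, adjusted p = 0.0130). The size for GH9C2 differed between the replicates because its low CO2 values did. COB, the COBRA protein that guides cellulose deposition, read 462.4 and 473.5, against 235.7 and 213.6 at low CO2 (1.04 ± 0.19, adjusted p = 0.0191). TBL26, TBL45, GH9B5 and CSLC5 rose by 2.53, 2.17, 1.77 and 1.06. Only 1 of the 44 passed without low CO2 in light replicate B.

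Expansins and XTH enzymes, which loosen and rejoin wall polymers, did not move together. Of 28 genes 3 rose and 1 fell, beside 7.45% higher and 5.42% lower among all named genes. Their median was 0.06, and it ran from -0.01 to 0.72 over the settings that left out no single array. Only 2 of the 28 were bright, and the middle intensity was 19.0 at normal CO2 and 17.4 at low CO2. The direction of the list was therefore not settled. EXPB1, EXPA4 and XTH16 rose by 2.16, 0.87 and 0.81. EXGT-A3, also named XTH27 and the brightest of those called, read 289.8 and 361.2 at normal CO2, against 837.4 and 1091.6 at low CO2 (-1.54 ± 0.20, adjusted p = 0.00957).

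Flavonoid genes, which make anthocyanins and flavonols, were few but rose. All 3 measured members of that list passed, with a median of 2.21, where 7.45% of all named genes rose. This list too was written with earlier results of these data known, so its count is no test. DFR, an enzyme of the anthocyanin branch, read 235.6 and 156.6 at normal CO2, against 59.2 and 20.5 at low CO2 (2.21 ± 0.45, adjusted p = 0.0265). UF3GT, which decorates anthocyanins, rose by 2.21, and CHIL, a chalcone isomerase-like protein, rose by 1.41. UGT78D1, a flavonol glycosyltransferase, rose by 1.76, while UGT78D2 and UGT78D3 of the same group had 0.45 and 0.06 and did not pass. UGT74B1, a glucosyltransferase of glucosinolate synthesis, read 562.3 and 595.8, against 197.1 and 89.1 at low CO2 (2.06 ± 0.37, adjusted p = 0.0190). The arrays stood apart for DFR, UF3GT, CHIL, UGT78D1 and UGT74B1. Of the 3 listed flavonoid genes, 0 passed without low CO2 in light replicate B.

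Most measured genes of autophagy, by which cells carry their own cytoplasm to the vacuole for breakdown, fell. The list named 24 loci, and 13 genes were measured. Its members were chosen with earlier results of these data known, so its count is no test. Most of the 13, and most of those called, were ATG8 genes, which are close paralogs. Of these 13 genes 10 fell and 0 rose, and the median was -1.0, made up of -0.98 for A and -1.10 for B. Among all named genes 5.42% were lower and 7.45% higher. All 5 bright members fell, where 17.5% of bright named genes were lower. ATG8 proteins are the small ubiquitin-like proteins that are joined to lipid on the growing autophagosome. ATG8E read 187.6 and 149.3 at normal CO2, against 926.7 and 893.3 at low CO2 (-2.39 ± 0.19, adjusted p = 0.00485). ATG8F, the brightest, read 951.2 and 643.6, against 1878.6 and 1842.5 at low CO2 (-1.24 ± 0.20, adjusted p = 0.0153). APG8H, also named ATG8I, read 446 and 460.9, against 748.3 and 802.8 at low CO2, the smallest called fall of the family at -0.76. Both normal CO2 arrays were lower for each.

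The size of the fall differed among the ATG8 genes. ATG8H fell by 2.17, APG8A (ATG8A) by 1.38, ATG8B by 1.36, ATG8C by 1.0 and ATG8D by 0.91. ATG8G had -0.65 and did not pass. ATG3, the enzyme that conjugates ATG8 to lipid, read 151.7 and 124 at normal CO2, against 305.8 and 217 at low CO2, and fell by 0.88. AT5G66930, the ATG101 subunit of the kinase complex that starts autophagy, read 98 and 78, against 205.8 and 165.7 at low CO2, and fell by 1.02. AT3G59950 and AT3G18770, also listed, had -0.20 and -0.69 and did not pass. AT3G18770 was dim, at 8.2 and 1.6 at normal CO2, against 11.1 and 12.3 at low CO2. Of the 13, 7 passed without low CO2 in light replicate B.

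Genes for the breakdown of leucine and other amino acids, which can feed mitochondrial respiration, fell in part. Of 12 genes 6 fell and 0 rose, and the median was -1.52, made up of -1.29 for A and -1.87 for B. Among all named genes 5.42% were lower and 7.45% higher. The members of this list too were chosen with earlier results of these data known, so its count is no test. IVD, isovaleryl-CoA dehydrogenase of leucine breakdown, read 58.5 and 55.1 at normal CO2, against 612.3 and 1317.1 at low CO2 (-3.82 ± 0.51, adjusted p = 0.00995). MCCA, of methylcrotonyl-CoA carboxylase in the same route, read 80.3 and 85.2, against 448.3 and 1806.1 at low CO2 (-3.34 ± 0.69, adjusted p = 0.0274). The normal CO2 arrays lay close together for both, while low CO2 replicate B read well above replicate A. AT5G09300 was the 1 member on the other side of 0, at 27.3 and 47.3 against 17.8 and 13.8 at low CO2 (0.92, adjusted p = 0.0771), and did not pass.

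AT4G33150, the bifunctional LKR/SDH enzyme of lysine breakdown, read 42.4 and 50.1 at normal CO2, against 231.2 and 341.5 at low CO2 (-2.43 ± 0.25, adjusted p = 0.00674). D2HGDH, which oxidises a by-product of lysine breakdown, fell by 0.85. ETFQO, ALDH6B2 and MCCB had -2.14, -2.02 and -1.17 and did not pass (adjusted p = 0.0634, 0.0625 and 0.101). Their low CO2 arrays differed from each other by large factors, as with 663.9 in A and 1701.6 in B for ALDH6B2. DELTA-OAT, which breaks down ornithine, read 121 and 126, against 357.3 and 309.7 at low CO2 (-1.38 ± 0.14, adjusted p = 0.00697). In limma, ETFQO and ALDH6B2 passed with a common median (adjusted p = 0.0481 and 0.0489) and with the 4 light arrays (0.0437 and 0.0433). Both also passed without dim probe sets (0.0335 and 0.0326) and with a replicate block (0.0210 and 0.0118). MCCB passed with the replicate block (0.0283). Of the 12, 3 passed without low CO2 in light replicate B and 8 without replicate A.

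Of 10 VPS genes, 3 fell and 0 rose, with a median of -0.45, beside 5.42% lower and 7.45% higher among all named genes. They were VPS20.1 (-1.18), VPS60.1 (-1.10) and VPS46.2 (-0.58), which all belong to the ESCRT-III sorting complex. Of the 10, 0 passed without low CO2 in light replicate B.

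Some ubiquitin ligase and vacuole genes, chosen after their values were seen, fell. As a list, 11 RING and U-box ligases held 1 fall and 0 rises, with a median of -0.15. Among all named genes 5.42% were lower and 7.45% higher. SKP2A, an F-box protein, read 116.1 and 105.1 at normal CO2, against 420.3 and 381.6 at low CO2 (-1.79 ± 0.14, adjusted p = 0.00485). ATL8, a RING protein, read 45.7 and 53.8, against 189.7 and 557.5 at low CO2 (-2.55 ± 0.49, adjusted p = 0.0229). GAMMA-VPE, a vacuolar processing protease, read 529.6 and 546.4, against 1438.7 and 1250.3 at low CO2 (-1.31 ± 0.20, adjusted p = 0.0124). The groups stood apart for all 3. PIP, a proline iminopeptidase, fell by 0.65, and DER2.1, a derlin of the endoplasmic reticulum, fell by 1.40.

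Some bright or middling genes of carbon metabolism, chosen after their values were seen, were lower at normal CO2. PPDK, which can make phosphoenolpyruvate from pyruvate, read 283.5 and 236.5 at normal CO2, against 692.4 and 1144.6 at low CO2 (-1.75 ± 0.33, adjusted p = 0.0215). SDP1, the main lipase of seed oil, read 83.2 and 84.1, against 182.9 and 335 at low CO2 (-1.49 ± 0.32, adjusted p = 0.0301). PAHX, which breaks down the phytol of chlorophyll, read 265.9 and 242.3, against 504.6 and 437.3 at low CO2 (-0.87 ± 0.13, adjusted p = 0.0129). None of these overlapped. FDH, the mitochondrial formate dehydrogenase, and ACLA-3, of ATP-citrate lyase, fell by 1.35 and 1.16. Of 6 genes of starch metabolism 1 rose and 0 fell, beside 7.45% higher and 5.42% lower among all named genes. DPE1, which works on the sugars released from starch, rose by 0.79, while SBE2.2, a branching enzyme, had 0.24 and did not pass. SWEET17, a fructose carrier of the vacuole, read 462.3 and 489, against 267 and 160.2 at low CO2 (1.17 ± 0.23, adjusted p = 0.0248), and was the 1 gene of 14 SWEET carriers to pass, a share below the 12.9% of all named genes.

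Further bright genes that fell, chosen after their values were seen, had various roles. ALDH7B4, a stress-inducible aldehyde dehydrogenase, read 379.1 and 230.7 at normal CO2, against 1675 and 2046.8 at low CO2 (-2.62 ± 0.28, adjusted p = 0.00712). COR47, a cold-regulated dehydrin, read 289.4 and 174.5, against 910.4 and 765.5 at low CO2 (-1.86 ± 0.33, adjusted p = 0.0188). CCL, a bright gene, read 925.7 and 920.5, against 2700.1 and 3345.9 at low CO2 (-1.70 ± 0.17, adjusted p = 0.00635). The 2 treatments were apart for each of them. MTP11, a manganese transporter, TET8, a tetraspanin, GSTU16, a glutathione transferase, and SRX, sulfiredoxin, fell by 1.77, 2.12, 1.54 and 1.0. GSTU16 was the 1 gene called of 11 GSTU genes, where 12.9% of all named genes passed. GSTU20 of the same family had 2.64 and did not pass (adjusted p = 0.136).

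Families did not always move as one. Of 27 families of at least 8 genes that share the letters of their symbols, 387 genes in all, 13 had a median above 0 and 14 below, and 19 medians lay within 0.25 of 0. The lowest medians were those of ATG (-1.12, 7 of 8 fell), VPS (-0.45), CYP (-0.31), ALDH (-0.27), PUB (-0.26), UGT (-0.19), TET (-0.15) and GSTU (-0.10). The highest were those of EXPA (0.40), UBP (0.32), GH (0.26), TBL (0.23), OTP (0.14), IQD (0.13), RALFL (0.12) and NET (0.10). Shared letters can join unrelated genes. GH held GH3 genes beside the GH9 hydrolases, and CYP held CYP59 and CYP71, which are not in the list of CYP monooxygenases. ATG was the 1 family of the 27 with more members past the threshold than not. In 6 families members passed in both directions, and in 4 no member passed. Of all named genes 12.9% passed, so a few calls in both directions within a family are no result about that family. Of 15 IQD proteins, which bind calmodulin, iqd33, IQD31, IQD30 and iqd21 rose by 1.26, 0.87, 0.85 and 0.84, where 7.45% of all named genes rose.

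Opposed members were measured within one family and often at good brightness. Among the tubulins, TUA1 read 130.7 and 105.9 at normal CO2, against 181.7 and 226.7 at low CO2, a fall of 0.75 (adjusted p = 0.0430) beside the rises of the other 5 called. Among the beta subunits of SnRK1, AKINBETA1 read 87 and 87.1, against 620.8 and 1236.6 at low CO2 (-3.23 ± 0.32, adjusted p = 0.00669). AT4G16360, named KINbeta2, read 129.5 and 143.8, against 86.1 and 77.7 at low CO2 (0.69 ± 0.15, adjusted p = 0.0294). The beta subunits tether the kinase and help to choose its targets. The starvation marker list had 2 measured genes, AKINBETA1 and AT3G15450. AT3G15450 read 281.9 and 353.2, against 2562.9 and 3639.2 at low CO2 (-3.25 ± 0.21, adjusted p = 0.00402), so both fell with arrays apart.

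Of 8 aldehyde dehydrogenases 1 rose and 1 fell, and of 11 RALF-like peptides 1 rose and 1 fell, where 12.9% of all named genes passed. ALDH3F1 read 417.4 and 443.3 at normal CO2, against 244.5 and 182.7 at low CO2, and rose by 1.0, in contrast to ALDH7B4. Among RALF-like peptides, which act as extracellular signals of growth, RALFL34 read 612 and 641.2, against 336.2 and 245.7 at low CO2 (1.10 ± 0.21, adjusted p = 0.0231). RALFL32 read 78.6 and 68.4, against 215.9 and 241.3 at low CO2 (-1.55 ± 0.14, adjusted p = 0.00579). The normal CO2 arrays were the higher for the one and the lower for the other.

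Of 29 serine carboxypeptidase-like proteins 3 rose and 1 fell, a share near the 12.9% of all named genes. The rises were those of scpl35, SCPL27 and scpl26, by 1.54, 0.99 and 0.81. SCPL49, the vacuolar carboxypeptidase Y, read 168.6 and 183.3 at normal CO2, against 338 and 304.3 at low CO2, and fell by 0.84. Of 20 BGLU glucosidases, BGLU47, BGLU44 and BGLU42 rose by 1.70, 0.91 and 0.84, and BGLU45 fell by 1.70. BGLU44 was the bright one, at 1223.2 and 1243.9, against 723.5 and 592.5 at low CO2. Among the glycosyltransferases named UGT or by an older name, 50 genes in all, 3 rose and 8 fell, with a median of -0.16, beside 7.45% and 5.42% of all named genes. UGT73B1 read 25.3 and 19.7 at normal CO2, against 292.1 and 218.6 at low CO2 (-3.13 ± 0.54, adjusted p = 0.0175). UGT87A2, UGT71B6 and UGT71C4 fell by 2.41, 1.72 and 1.07.

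**Figure D4:**
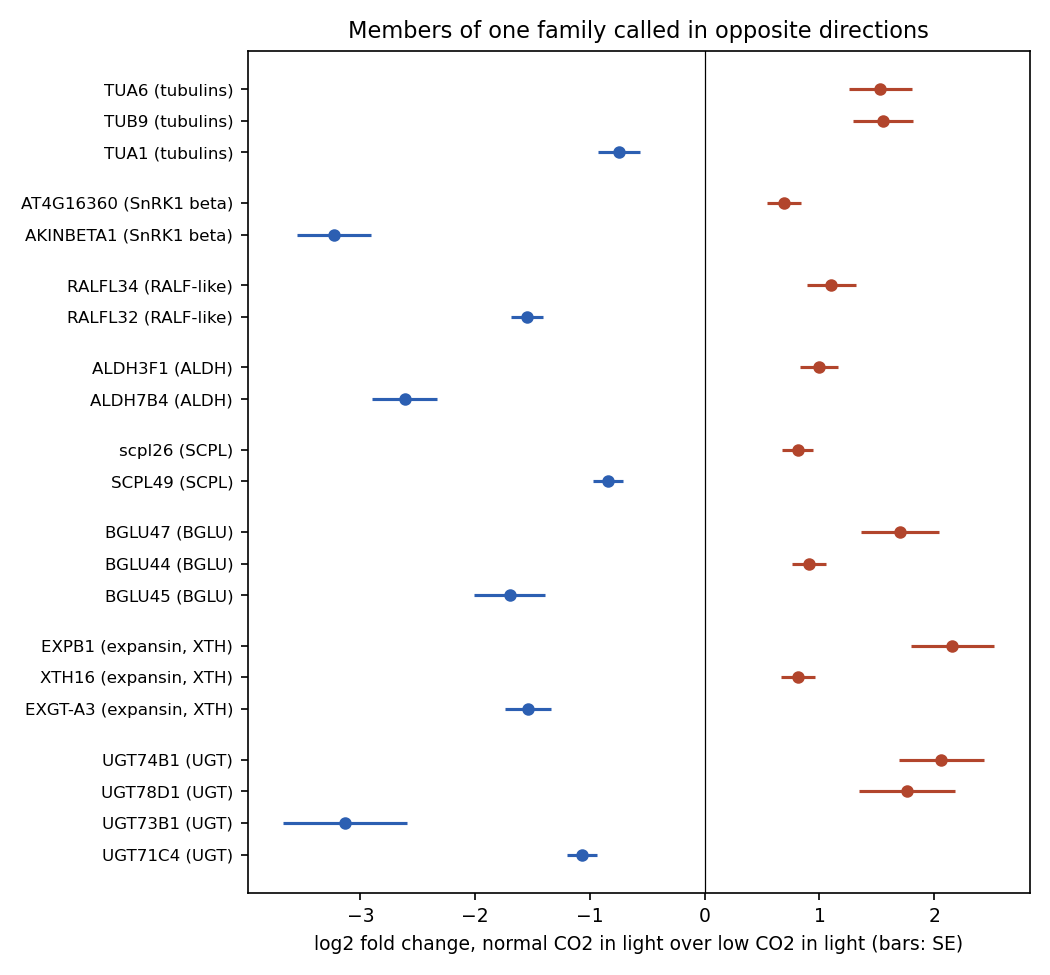
Log2 fold change with its SE (x axis), normal CO2 in light over low CO2 in light, for called genes of 8 families (y axis, family in brackets), rises in red and falls in blue. Each family holds called members on both sides of 0, such as RALFL34 at 1.10 and RALFL32 at -1.55.

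Of 24 CYP monooxygenases 4 fell and 0 rose, with a median of -0.32, beside 5.42% lower and 7.45% higher among all named genes. CYP71B6, the bright one of these, read 178.4 and 173.6 at normal CO2, against 353.8 and 339.9 at low CO2 (-0.95 ± 0.12, adjusted p = 0.00879). CYP71B23 and CYP71B24 fell by 2.58 and 1.56. Of regulators, BZIP53, a factor of the network that acts in sugar starvation, read 181 and 243.2, against 353.5 and 628 at low CO2 (-1.14 ± 0.28, adjusted p = 0.0455). Of 14 bZIP genes, 1 rose and 3 fell. BZIP28, a sensor of unfolded proteins in the endoplasmic reticulum, fell by 0.72. The called members bZIP48 and BZIP61 were dim. bZIP48 read 1.2 and 1.1 at normal CO2, against 6.9 and 5.3 at low CO2, and fell by 0.66. BZIP61 read 17.7 and 21.5, against 1.2 and 1.8 at low CO2, and rose by 1.61. All these values of bZIP48 and the low CO2 values of BZIP61 lay below the amount added before taking log2. WRKY6, a senescence-linked factor, was the 1 of 7 WRKY genes to pass, with a fall of 1.94, where 12.9% of all named genes passed. The U-box ligase PUB24 fell by 1.26. Of the CYP genes, 2 passed without low CO2 in light replicate B.

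The largest changes among bright named genes included many loci without a gene name in the tables used. AT1G73600 had the largest rise of this set and read 1626.7 and 1745.3 at normal CO2, against 245.9 and 78.6 at low CO2 (3.52 ± 0.49, adjusted p = 0.0105). After GH9C2 came AT3G54400 (2.41) and UGT74B1 (2.06). AT4G30020, AT5G03350, AT2G40360, AT3G23940, AT5G63180 and AT5G46580 rose by 1.99 to 2.04. For these rises the low CO2 B array was the dimmer of its group in each case. SIS, a serine-rich protein named for its induction by salt, read 20 and 13.9, against 371.8 and 526.8 at low CO2 (-4.23 ± 0.23, adjusted p = 0.00268).

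AT2G05540 read 80 and 58.8 at normal CO2, against 1137.1 and 1449.1 at low CO2 (-4.09 ± 0.20, adjusted p = 0.00268). AT5G19120 read 91.7 and 128.9, against 1563 and 2071.3 at low CO2 (-3.96 ± 0.22, adjusted p = 0.00268). Falls of 3.56 to 4.07 were measured for AT1G72060, AT3G15630, AT2G32150, AT2G20670, AT3G10020 and AT4G01870. The 10 largest falls were all larger than the largest rise. Over all 81 bright called genes with a symbol of their own, a set taken after the values were seen, 38 rose and 43 fell.

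The group kept in darkness at low CO2 gives the same lists a further level, set beside the others here without a test. The middle intensity of the large ribosomal subunit genes was 848 at normal CO2 in light, 500 at low CO2 in light and 588 at low CO2 in darkness. For ribosome assembly factors it was 123, 58.8 and 78.5, and for autophagy genes 88.0, 256 and 231. For amino acid breakdown it was 75.5, 328 and 433. In each of these 4 lists the levels at low CO2 in light and in darkness were nearer to each other than either was to normal CO2.

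Some calls near the threshold ended in at least 1 setting that left out no single array, with adjusted p-values of 0.0503 to 0.0922. Among the genes named here they were those of ACLA-3, AT3G09720, ATG3, BZIP53, bZIP48, CHIL, DPE1, GME, HTB4, IQD30, KINbeta2 (AT4G16360), NRPB9B, PGY1, PRH75, SIRB, SPR1, TUA1, ty2, UGT78D1, UGT87A2, VPS46.2 and VPS60.1. Each kept its direction in those settings.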

How the data were processed

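Whole pgm rosettes were hybridised to single-colour Affymetrix arrays, per the labels' protocols. The authors deposited 1 linear intensity per probe set and array. MAS5 is named in the submitters' processing notes, with neither its version nor its scaling target nor any detection call. No normalization was added. Intensities were taken to log2 after adding 7.3, a value that 20.1% of them did not exceed, which understates the changes of dim probe sets. A single model of the 3 group means over all 6 arrays (limma 3.58.1, R 4.3.3, lmFit and eBayes with a trend, 3 residual and 3.27 prior degrees of freedom) gave each adjusted p, by the Benjamini-Hochberg method over 22746 probe sets, with no fold minimum. It was tested on simulated data. SD and SE rest on 2 arrays a group, and their number limits the precision. The labels do not say that A and B were grown apart, so p-values measure the spread between these samples.

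Gene names came from the platform table, updated by Entrez ID to TAIR10.1: 13513 probe sets had 1 symbol, 503 several and 8730 none, and several named no gene. Each of the 13355 genes was taken by its brightest probe set. Probe sets may cross-hybridise among close paralogs such as ATG8, tubulin and ribosomal protein genes. The tables hold no descriptions, so families were built from the letters of symbols, in place of the shared descriptions planned. Some families are not reported here. Of 60 lists written at first, 27 had 3 measured genes or more, and 24 were added after values were seen. Members of the ribosomal protein, assembly factor, synthetase, translation factor and some histone, folding and photorespiration lists were taken by locus number from general knowledge, as the tables do not annotate most of them. Members and lists were chosen with earlier results of these data known. Genes named are the 10 largest rises and falls among bright called probe sets with groups apart, up to 4 called members per list, the 8 highest and lowest families, and further bright or opposed genes chosen after their values were seen. Alternatives were another pseudocount (1 or 30), quantile or common median scaling, a filter on dim probe sets (mean under 20), eBayes without trend, the 4 light arrays alone, the replicate letter as a block, other brightness minimums and each array left out. A-minus-B differences of the groups correlated across probe sets at 0.015 (low and normal CO2 in light), 0.307 and 0.159, so the letters were not taken as pairs.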

Additional observations from a re-analysis of the deposited data

How the results depend on the processing

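All 6-array settings and the model of the 4 light arrays kept the count of calls within 1.5 times. The total was 3316 with a common median, 3454 with quantile normalization, 3454 and 3217 with pseudocounts of 1 and 30, 4207 without dim probe sets, 3113 without the eBayes trend and 2752 with the 4 light arrays. With a replicate block for the letters A and B, which were not shown to pair the samples, 3960 passed, 1446 of them bright. Rises made up 57.5% of all calls and 47.5% with a common median; the median of all probe sets was -0.01 and then -0.08. Bright counts with a minimum of 100 were 2014 (1102 higher, 912 lower), and with 500 they were 375 (193 higher, 182 lower); these follow from the number of probe sets kept. With 1 array left out in turn, totals ran from 0 to 2744 (0 to 1506 higher, 0 to 1239 lower), and bright totals from 0 to 1071 (0 to 539 higher, 0 to 532 lower). Both counts of 0 came from leaving out a normal CO2 array (unadjusted p under 0.05: 5835 and 4779 probe sets, bright 1542 and 1328); the cause was not tested. Of 161 genes examined, 149 were called, and 131 of the 161 kept their side of the threshold and their direction in each setting that left out no single array; 87 calls ended without low CO2 in light replicate B. Direction turned for 4 uncalled genes: with quantile normalization RCA was at 0.0046 and PSAN at 0.0035, and with 1 array left out LHCB4.1, RCA, PSAN and SBPASE ranged over -0.015 to 0.205, -0.102 to 0.100, -0.057 to 0.031 and -0.158 to 0.078. Of 27 list medians, those of BGLU, SWEET, bZIP, expansin and XTH, Calvin-Benson and plastid-encoded genes changed sign in some setting.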

Other observations

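Of 9233 probe sets without a single gene name, 910 were higher and 681 lower at normal CO2. Of 147 genes with several named probe sets, 21 had a called one. All probe sets of the gene pointed the same way in 18 of these 21, 8 had at least 2 called, and 0 were called in opposite directions. Thiol redox genes went opposite ways: the thioredoxin ty2 read 569.6 and 647.2 at normal CO2, against 349.8 and 396 at low CO2, a rise of 0.70, and the glutaredoxin GRXC1 read 157.2 and 167.2, against 298.1 and 350.9 at low CO2, a fall of 0.97. PRA1.B4, of a family of vesicle proteins, rose by 2.32 where 0 of its other measured relatives passed. LCR68, a small cysteine-rich protein, rose by 0.75.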
